A study of Mus musculus with 12 samples.

Results

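The translation initiation and elongation factors were taken by name: every gene marked as coding whose symbol starts with Eif or Eef followed by a digit, without the pseudogene ending -ps. The rule found 61 of 15344 measured genes, of which 53 carry an initiation factor symbol (Eif) and 8 an elongation factor symbol (Eef), and left out 3 pseudogene rows. The rule itself uses no expression value. All 61 members passed the filter on low values in each comparison. All 61 were protein coding in the GENCODE M21 annotation on GRCm38 and lay on 20 chromosomes.

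RNA was sequenced from the quadriceps of 12 mice, 4 in each of 3 groups, all 6 months old. The group labelled WT held wild-type C57BL/6 mice, the group labelled KO held GAA knockout mice given PBS, and the group labelled AAV held GAA knockout mice given the vector AAV2/8-LSPhGAApA at 2e12 vg per kg. The study's methods give a C57BL/6 background for the knockout mice as well. Both injections were made at 2 months of age, 4 months before harvest. The vector drives human acid alpha-glucosidase from a liver-specific promoter, and the treated mice carry the same knockout. GAA is the lysosomal enzyme that degrades glycogen, and its loss causes Pompe disease. The study's methods name male mice for the knockout groups and do not give the sex of the wild-type mice. The Y-linked Eif2s3y had 1129 to 1379 normalized counts in WT, 943 to 1392 in KO and 1234 to 1533 in AAV libraries. The libraries labelled WT are therefore also of male mice.

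Initiation factors assemble the ribosome on a messenger RNA. eIF2 carries the initiator tRNA to the small subunit, eIF4F (eIF4E, eIF4G and eIF4A) binds the cap and unwinds the leader, eIF3 joins them to the small subunit, eIF1 and eIF1A monitor the start codon, and eIF5B joins the large subunit. Elongation factors then move the ribosome: eEF1A brings each aminoacyl-tRNA, eEF1B recharges eEF1A with GTP, and eEF2 translocates. The main brakes are the kinases that phosphorylate eIF2α, the 4E-binding proteins that hold eIF4E and are released by mTORC1, and eEF2 kinase, which inactivates eEF2. Adult skeletal muscle is known for using eEF1A2 in place of the widespread eEF1A1.

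Labels and purity were examined first. Gaa (chr11:119267887-119285454), the targeted gene, went against the labels, with normalized counts of 343, 14640.2, 324 and 460.3 under label WT, 12151, 13074, 11936 and 12895 under label KO and 947, 587, 499.6 and 9854 under label AAV. The counts are per gene and do not show which exons the reads cover. The libraries labelled KO were high, and WT replicate 2 and AAV replicate 4 stood apart from their groups, so that every direction below is between libraries as labelled, and WT, KO and AAV stand for the labels. Total reads were 22122233 to 31974197 for the libraries labelled AAV, 31225360 to 40846896 for KO and 32299356 to 47379737 for WT. All 10 fast skeletal muscle markers were measured, and their summed normalized counts were 6087919 to 7780583 (WT), 7029482 to 8244069.9 (KO) and 4841025 to 7903588 (AAV). WT replicate 3 and AAV replicate 4 differed from their groups in macrophage markers, which is taken up beside the genes it touches.

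Levels of the members were compared per kilobase of exons, as the mean normalized count of 12 libraries. They ran from 3.46 for Eif5a2, the minor form of eIF5A, to 27543 for Eef1a2, with a median of 578 over the 61 members. Eef1a2 was followed by Eef2 (13092), Eif1 (5226), Eif5a (3391) and Eif4g1 (2762). At the low end above Eif5a2 stood 3 of the eIF2α kinases, Eif2ak3 (16.5), Eif2ak4 (26.2) and Eif2ak2 (39.6), together with Eif2s3x (36.7). Their relative Eif2ak1, the haem-regulated kinase, stood at 309.8. Isoforms of 1 factor were far apart: Eif4a2 (1066) against Eif4a1 (85.1), Eif2s3y (310.0) against Eif2s3x, and Eif5a against Eif5a2.

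**Figure D1:**
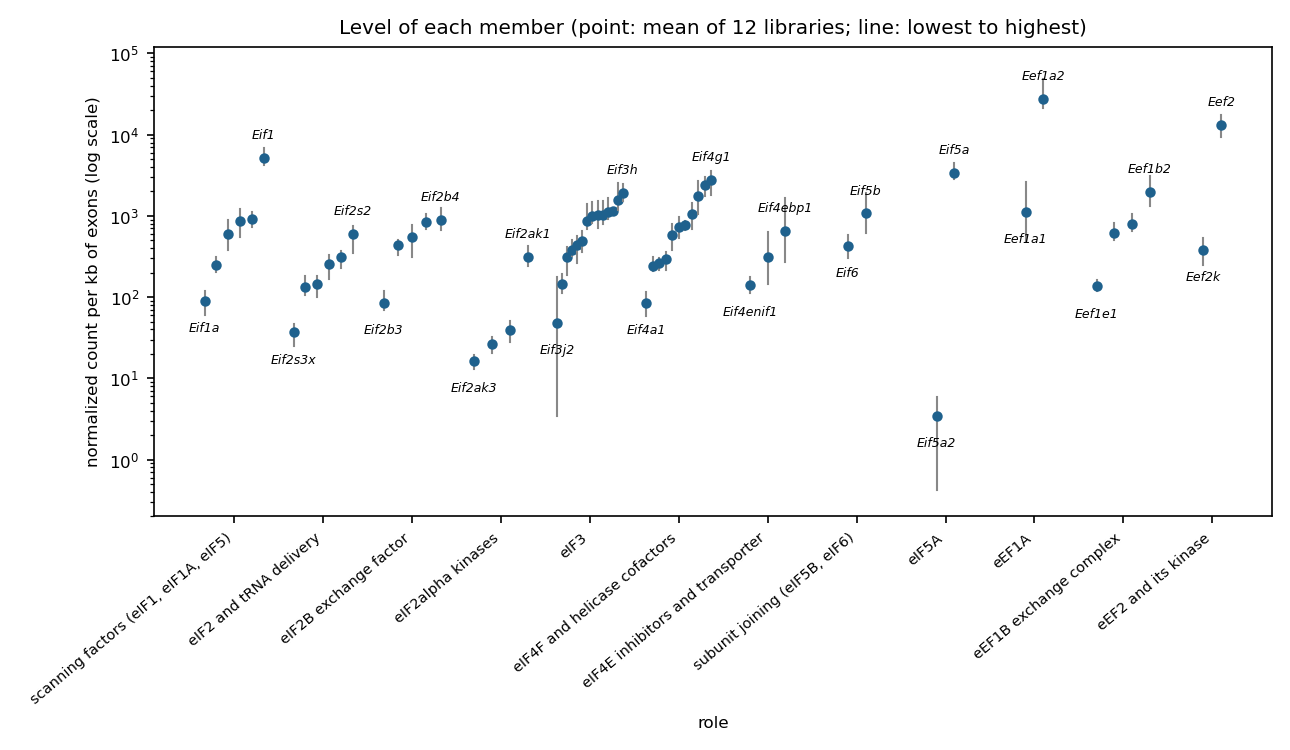
Level of each of the 61 members in normalized counts per kilobase of exons (log axis), grouped by role on the x axis. Points are means of 12 libraries and lines run from the lowest to the highest library. Eef1a2 and Eef2 lie above all other members and Eif5a2 lies below them.

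The first comparison asked how the muscle of the libraries labelled KO differs from that of the libraries labelled WT. Of the 61 members, 13 (21.3%) passed the test (limma, Benjamini-Hochberg adjusted p under 0.05 over 14859 genes), against 27.6% of all genes tested. Lower in the libraries labelled KO were 8 members (13.1%, against 15.3% of all genes), namely Eef1a1, Eif4ebp1, Eef1b2, Eif3f, Eif3i, Eif2d, Eif1b and Eif1. Higher were 5 (8.2%, against 12.3% of all genes), namely Eef2k, Eif2ak1, Eif4g3, Eif2b2 and Eif3j2. Calls with a log2 fold change of 1 or more in either direction numbered 3 (4.92%, against 13.9%): Eef1a1, Eif4ebp1 and Eif3j2. The 4 libraries of each label did not overlap for 15 members (24.6%, against 28.3% of all genes). Each of these shares was below that of all genes, and the median log2 fold change of the members was -0.05 against 0.02 over all genes. Values written below with ± beside an adjusted p are log2 fold changes ± SE from limma.

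**Figure D2:**
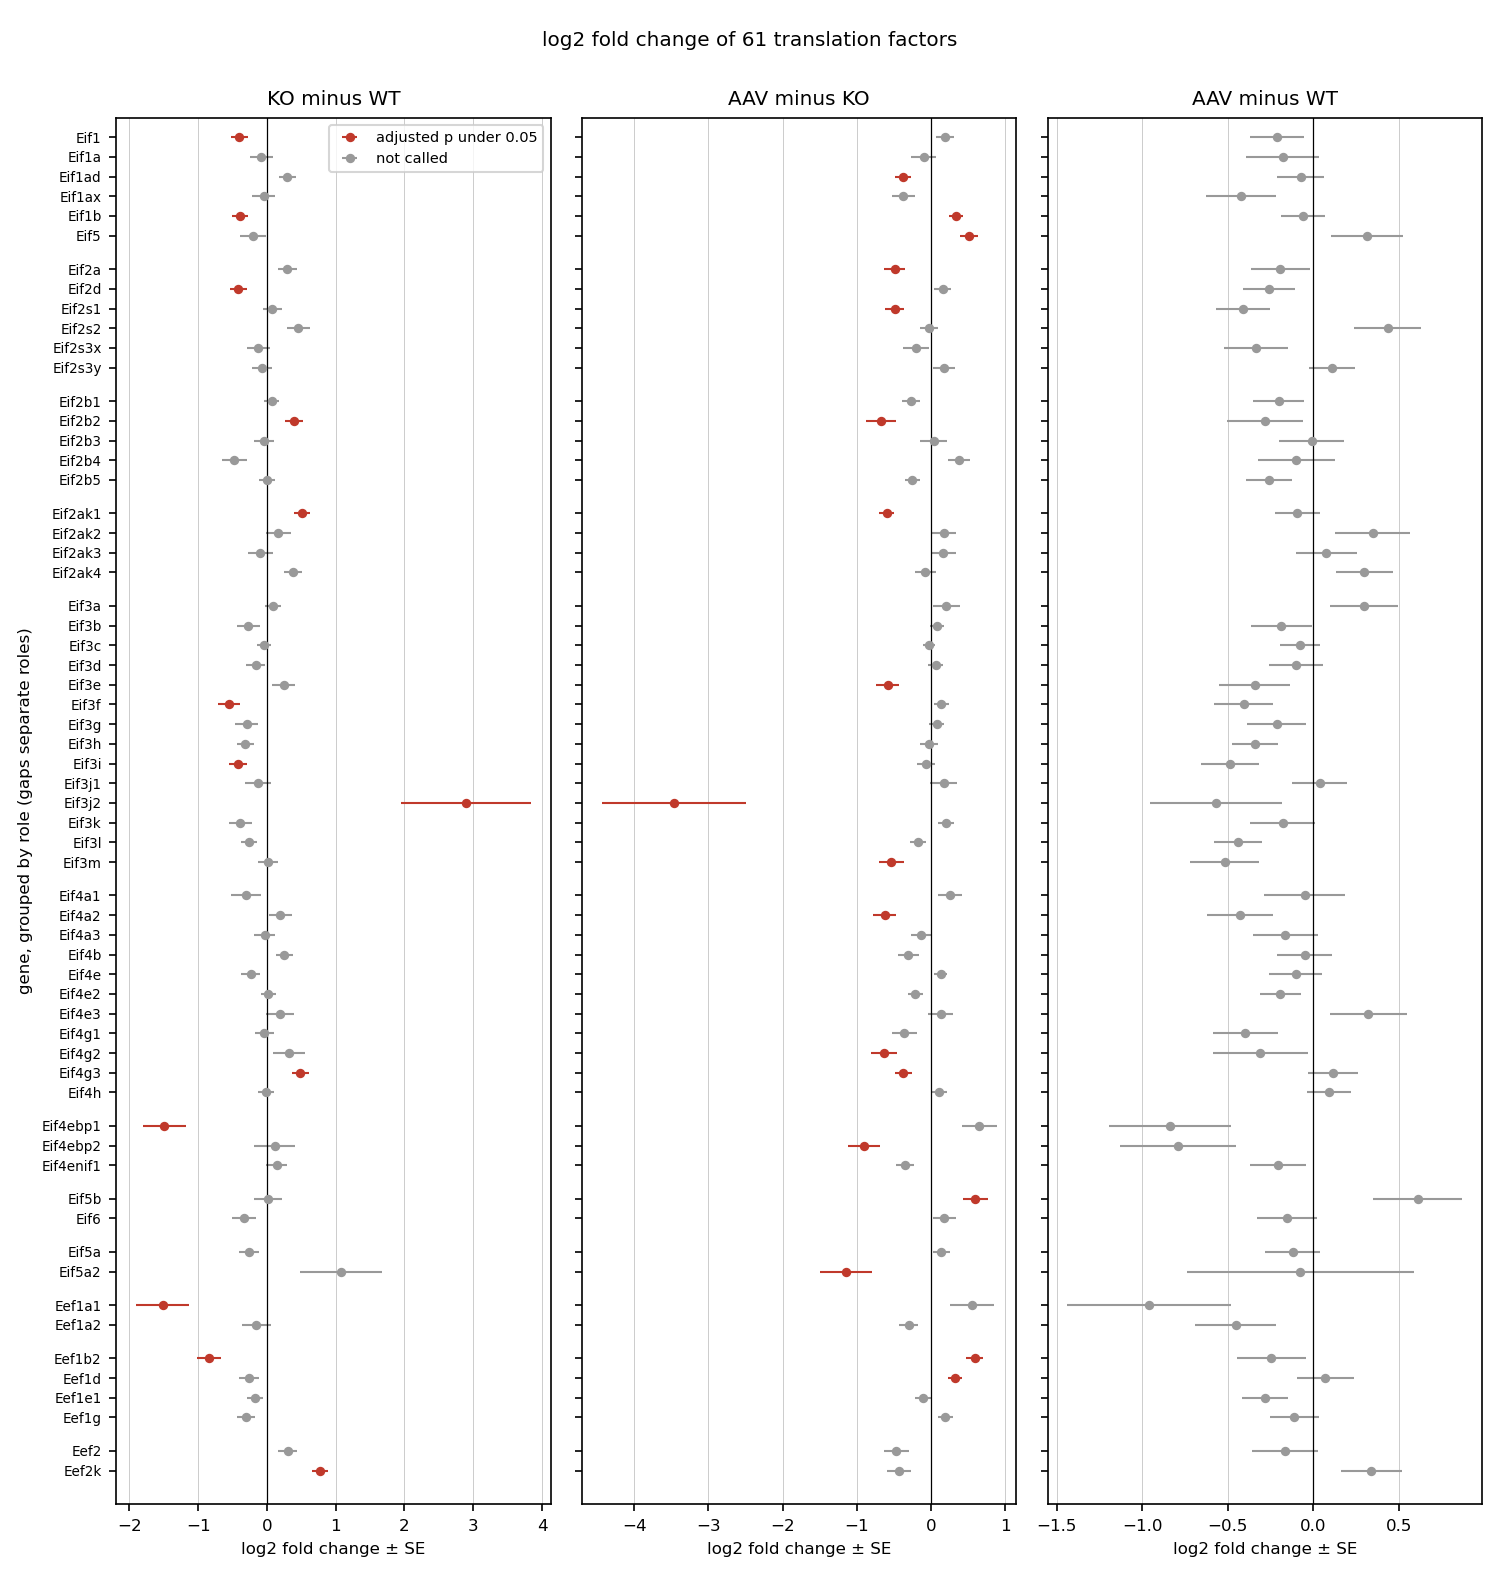
Log2 fold change ± SE (x axis, a different scale in each panel) of all 61 members, ordered by role, for the 3 comparisons. Red points passed the test (adjusted p under 0.05) and grey points did not. Red points number 13 for KO minus WT, 18 for AAV minus KO and 0 for AAV minus WT.

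Among the elongation factors, the change with the greatest size was in Eef1a1 (ENSMUSG00000037742, chr9:78478449-78489151), the widespread form of the factor that delivers aminoacyl-tRNA. Its normalized counts were 5223, 6474, 1523 and 5349 for label WT and 1529.5, 1373, 1597 and 1224 for label KO. WT replicates 1, 2 and 4 were above every KO library, whereas WT replicate 3 lay among the KO libraries, so that the groups overlap. The mean was 4642 ± 2154 (SD, n = 4) for WT and 1431 ± 167 for KO, and the log2 fold change was -1.52 ± 0.39 (SE, limma, adjusted p = 0.0189). Leaving out KO replicate 4 (adjusted p = 0.0517) or WT replicate 1 (0.0527), 2 (0.0552) or 4 (0.0581) ended the call, with log2 fold changes between -1.29 and -1.44. Without WT replicate 3 it was -1.99 (adjusted p = 2.53e-06).

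The muscle form Eef1a2 (ENSMUSG00000016349, chr2:181147653-181157014) was not called. Its counts were 59979.7, 102315, 49492 and 56708 for WT and 58797, 56019, 56801 and 60066 for KO, with a log2 fold change of -0.15 ± 0.21 (SE, limma, adjusted p = 0.609). Its sign turned without WT replicate 2 (0.07) and with a correction for gene length (0.07) or GC content (0.22), none of them called. WT replicate 2 was the highest library by far, and the other WT libraries overlapped the KO range. Per kilobase, Eef1a1 made up 2.51 to 7.31% of the eEF1A level in the libraries labelled WT, 1.67 to 2.3% in KO and 1.99 to 7.32% in AAV. Among uniquely mapped reads, which leave out those shared by Eef1a1 and its near-identical copies, Eef1a2 was therefore the main form in every library.

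In the eEF1B complex, which recharges eEF1A, Eef1b2 (ENSMUSG00000025967, chr1:63176825-63180486) fell. Its counts were 6145, 7737, 4245 and 7034 for WT and 3385, 3532, 3488 and 3355 for KO, without overlap and with the KO libraries close together. Its log2 fold change was -0.84 ± 0.17 (SE, limma, adjusted p = 0.00882), and the call held in each of 19 alternative settings. The partner subunits Eef1d (-0.26 ± 0.15, adjusted p = 0.21) and Eef1g (-0.30 ± 0.13, adjusted p = 0.111) had log2 fold changes of the same sign but were not called, and neither was Eef1e1 (-0.18 ± 0.12, adjusted p = 0.283), which is named for its likeness to the family and sits in the tRNA synthetase complex.

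The brake on elongation went the other way. Eef2k (ENSMUSG00000035064, chr7:120842831-120907450), the kinase that inactivates eEF2, had counts of 2209.7, 2166, 2244 and 1828 in WT and 3721, 3333, 3396 and 3968 in KO. Every KO library was above every WT library. The log2 fold change was 0.77 ± 0.12 (SE, limma, adjusted p = 0.00248), the lowest adjusted p of the 61 members, and the call held in each of 19 alternative settings. Its substrate Eef2 (chr10:81176631-81182498) had counts of 37678, 48435, 43340.1 and 37555 in WT and 57308, 47385, 48172 and 52017 in KO and was not called, at 0.30 ± 0.14 (adjusted p = 0.133), except with a correction for GC content, where it was 0.50 (adjusted p = 0.0273). Eef2k reads per 1000 Eef2 reads were 44.7 to 58.6 in WT and 64.9 to 76.3 in KO, which do not overlap, and 64.6 to 79.7 in AAV, which overlaps the KO range.

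**Figure D3:**
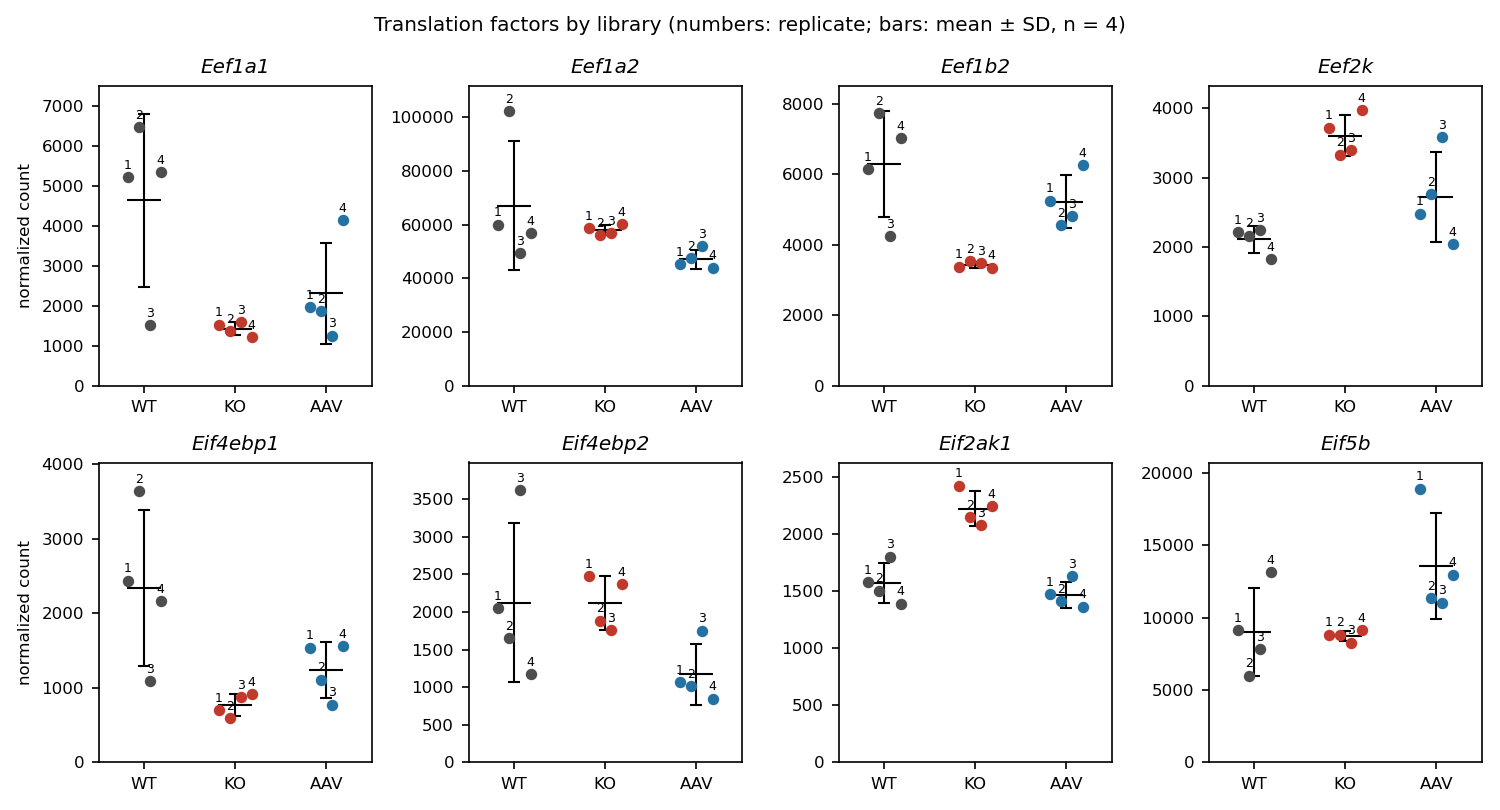
Normalized counts (y axis, from 0) of 8 members in the 12 libraries, by group label on the x axis. Points are libraries with their replicate number, and black bars are the mean ± SD of 4. The KO libraries of Eef2k and Eif2ak1 lie above all WT libraries, and WT replicate 3 lies with the KO libraries for Eef1a1 and just above them for Eif4ebp1.

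Among the inhibitors of the cap-binding protein, Eif4ebp1 (ENSMUSG00000031490, chr8:27260329-27276674), which holds eIF4E until mTORC1 phosphorylates it, fell. Counts were 2438, 3645, 1095 and 2166 in WT and 699, 595, 879.9 and 917 in KO. The groups do not overlap, although WT replicate 3 comes close to the KO range. The log2 fold change was -1.49 ± 0.32 (SE, limma, adjusted p = 0.00924), and the call held in each of 19 alternative settings with values between -1.81 and -1.24. Its paralog Eif4ebp2 had counts of 2047, 1648, 3619 and 1175 in WT and 2480.2, 1886, 1756 and 2371 in KO and was not called (0.11 ± 0.29, adjusted p = 0.798). Its value was 0.41 without WT replicate 3 and -0.13 without WT replicate 4, so no direction is given for it. Eif4enif1, which carries eIF4E to the nucleus and to P-bodies, was at 0.14 ± 0.15 (adjusted p = 0.498).

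The 4 libraries highest in macrophage markers were also the highest for Eef1a1, Eef1b2 and Eif4ebp1 and the lowest for Eef2k. Of 7 listed macrophage markers 6 were measured, and none of them was at 0 in any library. Their summed normalized counts were 3901, 3754, 1308 and 4337 in WT, 1139, 1203, 1306 and 745 in KO and 1666, 1369, 776 and 4003 in AAV. WT replicates 1, 2 and 4 and AAV replicate 4 had the 4 highest sums. The same 4 libraries were the highest of the 12 for 8 members (13.1%, against 8.98% of 15154 genes), among them Eef1a1, Eef1b2 and Eif4ebp1, and the lowest for 4 members (6.56%, against 6.23%), among them Eef2k. WT replicate 3, with a marker sum of 1308 beside at most 1306 in KO, was inside the KO range for Eef1a1 and outside it for Eef1b2, Eif4ebp1 and Eef2k. The single markers differed from each other. Cd68 was at 560.1, 590.0, 69.8 and 568 in WT and 36.7, 28.2, 33.7 and 30.9 in KO. Csf1r overlapped between the labels, at 287, 272, 144 and 287 in WT and 157, 192, 255 and 108 in KO. Cd163 went the other way, at 73.3, 68.0, 119 and 93.6 in WT and 192, 152, 159.9 and 109 in KO. In these bulk samples fewer cells of a type and less RNA per cell cannot be told apart, and the part of macrophage RNA in the differences of these 4 members was not tested.

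**Figure D4:**
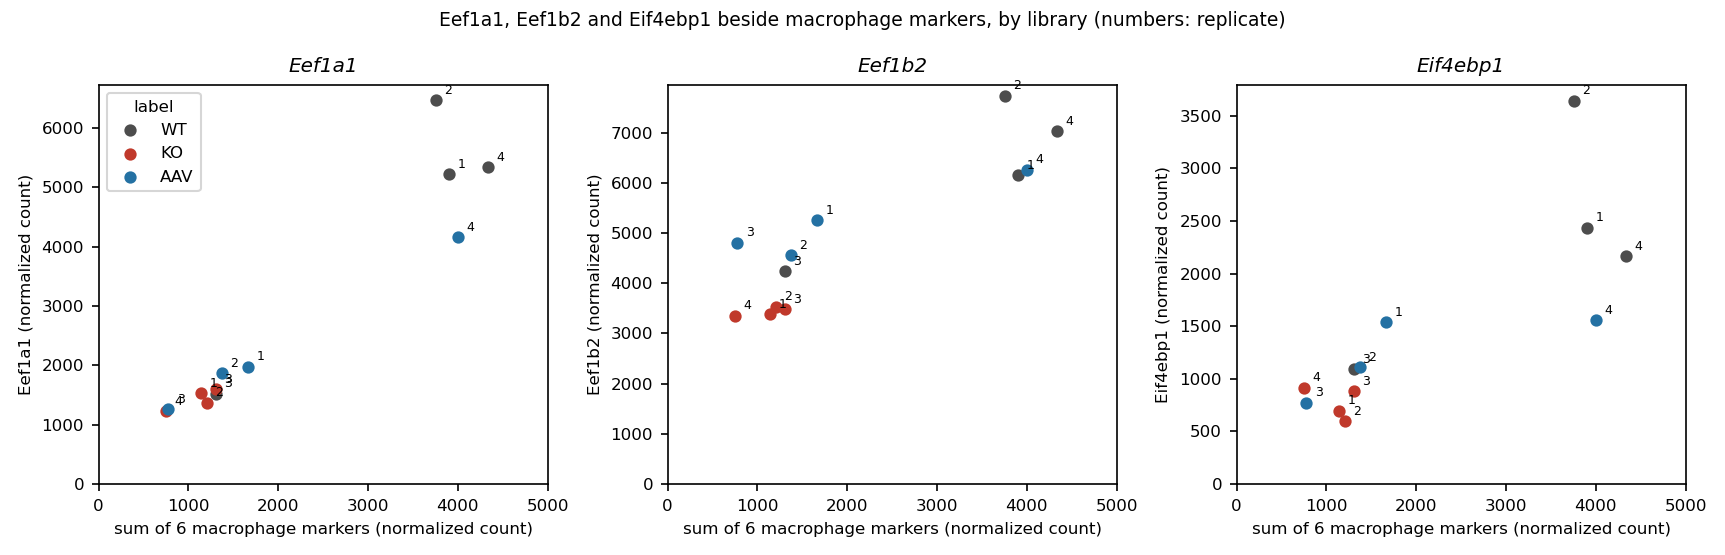
Normalized counts of Eef1a1 (left), Eef1b2 (middle) and Eif4ebp1 (right) against the summed normalized counts of 6 macrophage markers (x axis) in 12 libraries, coloured by label and numbered by replicate. WT replicates 1, 2 and 4 and AAV replicate 4 have marker sums of at least 3754 and the other 8 libraries of at most 1666, and the same 4 libraries are the highest for all 3 genes.

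Of the 11 members of eIF4F and its helicase cofactors, 1 rose, 0 fell and 10 were not called. The riser was Eif4g3, a paralog of the scaffold eIF4G, with counts of 7957, 6578, 7345 and 5922 in WT and 10852, 9604, 8857 and 9505 in KO. The groups do not overlap, and the log2 fold change was 0.49 ± 0.13 (SE, limma, adjusted p = 0.0213). Without WT replicate 4 or KO replicate 1, 2 or 4, or with a correction for gene length, the call was lost. The cap-binding protein Eif4e (-0.24 ± 0.14, adjusted p = 0.231), the scaffold Eif4g1 (-0.04 ± 0.14, adjusted p = 0.86), the helicases Eif4a1 (-0.31 ± 0.22, adjusted p = 0.301) and Eif4a2 (0.20 ± 0.16, adjusted p = 0.377), and the helicase cofactors Eif4b (0.25 ± 0.13, adjusted p = 0.156) and Eif4h (-0.02 ± 0.12, adjusted p = 0.911) did not pass. Eif4a3, a helicase of the exon junction complex whose 3′ end lies 2909 bases beyond the end of Gaa, was at -0.03 ± 0.15 (adjusted p = 0.895). Eif4g2, a scaffold without the eIF4E site, varied widely in WT (18536, 12095, 27629 and 14469) and was also not called (0.32 ± 0.23, adjusted p = 0.304).

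Members around eIF2 gave 1 call in each of 3 groups. Among the 4 kinases that phosphorylate eIF2α, Eif2ak1 (chr5:143817788-143904251) rose, from 1584, 1507, 1806 and 1392 in WT to 2428, 2152, 2079 and 2248 in KO. The groups do not overlap, the log2 fold change was 0.51 ± 0.12 (SE, limma, adjusted p = 0.0131), and the call held in each of 19 alternative settings. The other kinases were not called in limma: Eif2ak2 (PKR) at 0.17 ± 0.18, Eif2ak3 (PERK) at -0.09 ± 0.18 and Eif2ak4 (GCN2) at 0.38 ± 0.13 (adjusted p = 0.0601). Eif2ak4 did pass in DESeq2 (0.37, adjusted p = 0.0312), with only genes of a mean of at least 50 tested (0.0445) and without WT replicate 3 (0.0375), among adjusted p-values of 0.0312 to 0.306 over 19 alternatives. Of the 5 subunits of eIF2B, the factor that reloads eIF2 with GTP and is blocked by phosphorylated eIF2, Eif2b2 rose from 1038, 1141, 935 and 866 to 1158, 1338, 1259.5 and 1448 (log2 fold change 0.39 ± 0.13 SE, limma, adjusted p = 0.047). That call was lost in 10 of 19 alternative settings, among them each fit without 1 KO replicate and those without WT replicate 1 or 4. The catalytic subunit Eif2b5 stood at 0.00 ± 0.12 (adjusted p = 0.98).

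Eif2d, which can deliver tRNA without GTP, fell from 1128, 1356, 1022 and 1032 to 825, 826, 789 and 951 (-0.41 ± 0.13 SE, limma, adjusted p = 0.0397), and the call was lost whichever KO replicate was left out and without WT replicate 1, 2 or 4. None of the eIF2 subunits passed: Eif2s1, which holds the phosphorylated serine, was at 0.08 ± 0.14 (adjusted p = 0.688) and Eif2s2 at 0.46 ± 0.17 (adjusted p = 0.0677). The X-linked Eif2s3x (137 to 179 in WT, 119.8 to 172 in KO) was lower than the Y-linked Eif2s3y (1129 to 1379 and 943 to 1392) in every library, in counts as per kilobase.

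The eIF3 scaffold has 14 members, of which 2 fell, 1 rose and 11 were not called. The median log2 fold change was -0.22, and 10 of 14 values were below 0, as were 59.0% of the values of all members and 48.3% of those of all genes. Eif3f (chr7:108934417-108942951) had counts of 4594, 7399.8, 4611 and 5722 in WT and 3931, 3409, 3924 and 3749 in KO, which do not overlap (-0.55 ± 0.16 SE, limma, adjusted p = 0.0318). Eif3i had 4394, 5712, 3724 and 4578 in WT and 3269, 3422, 3333 and 3577 in KO, also without overlap (-0.42 ± 0.14 SE, limma, adjusted p = 0.0447). Both calls were lost whichever KO replicate was left out and without WT replicate 2 or 4, and that of Eif3i also without WT replicate 1. The largest subunit Eif3a (0.09 ± 0.12) and the core subunits Eif3b (-0.27 ± 0.16) and Eif3c (-0.05 ± 0.10) did not pass.

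Eif3j2 had the greatest fold of all members, and it is uncertain. It is a gene of 1 exon on chromosome 18 whose transcript is 99.4% identical to that of Eif3j1 on chromosome 2 over 2379 aligned bases. How reads were divided between the copies was not tested. Eif3j2 counts were 22.6, 18.1, 26.8 and 24.4 in WT, 402, 13.7, 419.8 and 391 in KO and 28.9, 14.1, 8.27 and 14.7 in AAV. KO replicates 1, 3 and 4 were high, and KO replicate 2 was as low as the libraries of the other labels. Eif3j1 showed the reverse within KO, with 650.3, 1132, 725 and 683, beside 900.4, 686, 962 and 889 in WT. The sum of both copies was 1052 to 1146 in KO, 704 to 989 in WT and 758 to 1019 in AAV. The log2 fold change of Eif3j2 was 2.90 ± 0.94 (SE, limma, adjusted p = 0.045), or 4.09 (adjusted p = 2.10e-05) without KO replicate 2, and the call was lost without KO replicate 1, 3 or 4 or WT replicate 1, 2 or 4, and with a correction for GC content. Eif3j1 was not called (-0.13 ± 0.19, adjusted p = 0.623).

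**Figure D5:**
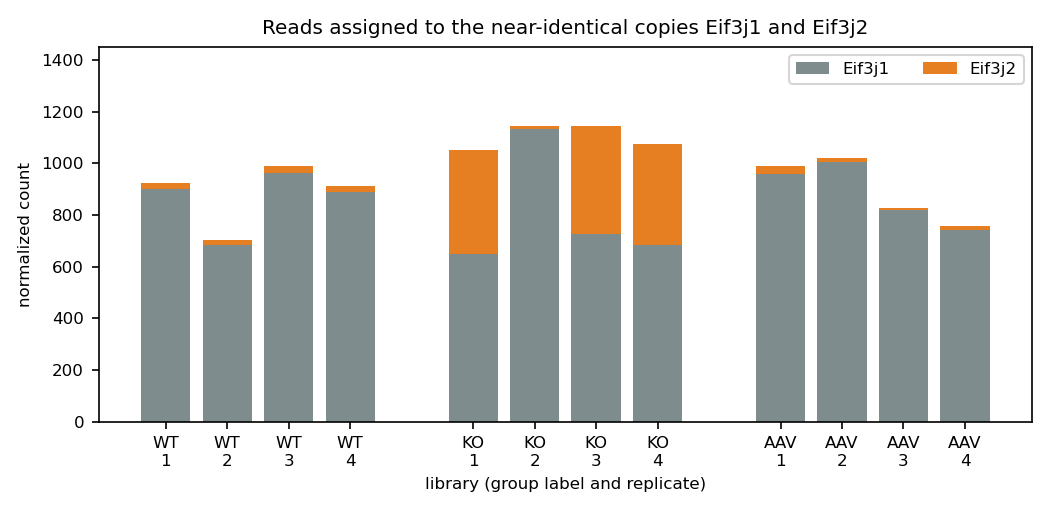
Normalized counts (y axis, stacked from 0) assigned to Eif3j1 (grey) and Eif3j2 (orange) in each of the 12 libraries on the x axis. Eif3j2 takes 36.4% to 38.2% of the sum in KO replicates 1, 3 and 4 and 1% to 2.93% in the other 9 libraries.

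Of the 6 scanning factors, 2 fell. Eif1, which guards start codon choice, went from 10704, 14459.5, 13119 and 11975 in WT to 9310.4, 9334, 9092 and 10129 in KO (-0.40 ± 0.12 SE, limma, adjusted p = 0.037). Its paralog Eif1b went from 1042, 1243, 1035 and 1210.3 to 811, 879, 863 and 879.8 (-0.40 ± 0.11 SE, limma, adjusted p = 0.029). Neither pair of groups overlaps, yet both calls were lost whichever KO replicate was left out, without WT replicate 2 or 4, and with a correction for gene length. Eif1a (-0.08 ± 0.17), Eif1ax (-0.05 ± 0.17) and Eif5 (-0.20 ± 0.19), which triggers GTP hydrolysis by eIF2, were not called. Neither were Eif5b (0.01 ± 0.21) and Eif6 (-0.33 ± 0.17) of subunit joining, nor Eif5a (-0.26 ± 0.14), which relieves stalled ribosomes, nor Eif5a2 (1.07 ± 0.60).

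The number of calls rests on which libraries are used. Without WT replicate 3 it was 31 of 61 (12 higher and 19 lower in KO), among 48.4% of all genes. It was 8 without WT replicate 1, 6 without WT replicate 2 and 4 without WT replicate 4. It was 5 without KO replicate 1, 6 without replicate 2, 6 without replicate 3 and 4 without replicate 4, among 15.9% to 19.2% of all genes over these 7 fits. With the replicate number as a block, Eif1, Eif1b, Eif2b2, Eif2d, Eif3f and Eif3i were not called, and total reads as the scaling ended the calls of Eif2b2 and Eif3i. DESeq2 called all 13 and also Eif2ak4, Eif2b4 and Eif3h. Eif4ebp1, Eef1b2, Eef2k and Eif2ak1 were the 4 of 13 members called in each alternative tried.

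The second comparison asked what distinguishes the libraries labelled AAV from those labelled KO, which serve in both comparisons. Of the 61 members, 18 (29.5%) passed, against 26.3% of 14894 genes. Lower in the libraries labelled AAV were 13 (21.3%, against 13.4% of all genes) and higher were 5 (8.2%, against 12.8%). Scaled by total reads, which moved the median log2 fold change of all genes from 0.04 to 0.21, 6 members were lower and 7 higher. A log2 fold change of 1 or more in either direction was reached by 2 members (3.28%, against 8.98%), Eif3j2 and Eif5a2. The groups did not overlap for 21 members (34.4%, against 30.6%).

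Among the members lower in the libraries labelled AAV, the lowest adjusted p was that of Eif2ak1, with 1475, 1412, 1631 and 1366 in AAV against 2079 or more in every KO library. Its log2 fold change was -0.60 ± 0.10 (SE, limma, adjusted p = 0.00531), and the call held in each of 19 alternatives. Eif4ebp2 had 1063, 1014, 1753 and 847 in AAV, against 1756 to 2480.2 in KO. AAV replicate 3 was just under the lowest KO library, and the comparison gave a log2 fold change of -0.90 ± 0.21 (SE, limma, adjusted p = 0.0164). Without KO replicate 1 (adjusted p = 0.0508) or 4 (0.0501), or with all 12 libraries in one fit (0.0547), that call was lost. Its paralog Eif4ebp1 had 1539, 1110.5, 775 and 1556 in AAV and was not called, at 0.65 ± 0.23 (adjusted p = 0.0615). The 4E-binding proteins thus had log2 fold changes of opposite sign, and in limma only that of Eif4ebp2 passed, whereas DESeq2 called both.

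Of the eIF4F group, 3 of 11 fell. Eif4a2, the main eIF4A helicase here, had 3666, 5023, 5252 and 3680.0 in AAV against 5557 to 7516 in KO (-0.62 ± 0.16 SE, limma, adjusted p = 0.0191). Eif4g2 had 11880.3, 16770.1, 17948 and 10655 against 19112 to 23147 (-0.63 ± 0.18 SE, limma, adjusted p = 0.0293), and Eif4g3 had 8672, 6843, 6959.7 and 7576 against 8857 to 10852 (-0.37 ± 0.12 SE, limma, adjusted p = 0.0417). None of the 3 overlapped between the groups, but each call was lost without at least 4 single libraries, AAV replicate 1 or KO replicate 1, 2 or 4 for Eif4a2 and Eif4g2 and AAV replicate 2, 3 or 4 or any 1 KO replicate for Eif4g3. Eif4e was not called (0.13 ± 0.09, adjusted p = 0.271).

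Around eIF2, Eif2s1 itself fell, with 586, 668, 554 and 492 in AAV against 743 to 896 in KO (-0.49 ± 0.12 SE, limma, adjusted p = 0.0201), a call lost without KO replicate 2 or 4 and with total reads as the scaling (-0.33, adjusted p = 0.0891). Eif2a, an eIF2-independent tRNA carrier, fell too, with 1319, 1515, 1431 and 1012 in AAV against 1661 to 2013 in KO (-0.49 ± 0.14 SE, limma, adjusted p = 0.0317). Eif2b2 fell as well, with 589.9, 872, 1224 and 694 in AAV (-0.67 ± 0.20 SE, limma, adjusted p = 0.0358), where AAV replicate 3 lies inside the KO range. Both of these calls were lost without AAV replicate 1 or KO replicate 1, 2 or 4, and that of Eif2b2 also without AAV replicate 2 or 4 or KO replicate 3. In eIF3, Eif3e (1262, 1884, 2037 and 1489 in AAV, 2269 to 2762 in KO, -0.58 ± 0.16 SE, limma, adjusted p = 0.0242) and Eif3m (751, 934, 1134 and 679, 1116 to 1409, -0.53 ± 0.16 SE, limma, adjusted p = 0.0377) fell, as did the uncertain Eif3j2 (-3.46 ± 0.98 SE, limma, adjusted p = 0.0285, and -4.66 without KO replicate 2). Eif3e lost its call without AAV replicate 1 or KO replicate 1, 2 or 4, Eif3m also without AAV replicate 4 or KO replicate 3, and Eif3j2 without AAV replicate 1 or 2 or KO replicate 1, 3 or 4. The other 11 eIF3 members were not called.

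The remaining members that fell were Eif1ad, a relative of eIF1A (-0.37 ± 0.11, adjusted p = 0.03), and Eif5a2 (-1.15 ± 0.35 SE, limma, adjusted p = 0.0373). Eif5a2 has few reads, with 19.3, 25.7, 29.4 and 27.4 in KO and 16.5, 8.05, 15.4 and 6.42 in AAV, and its call was lost without AAV replicate 2 or 4 and whichever KO replicate was left out. Eif1ad lost its call without AAV replicate 1 or 4 or KO replicate 1, 2 or 4. The major form Eif5a was at 0.14 ± 0.12 (adjusted p = 0.387).

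The 5 members higher in the libraries labelled AAV were 2 eEF1B subunits and the initiation factors Eif5b, Eif5 and Eif1b. Eef1b2 had 5254, 4557, 4806 and 6261 in AAV against 3355 to 3532 in KO (0.59 ± 0.12 SE, limma, adjusted p = 0.00836), and this call held in each of 19 alternatives (adjusted p at most 0.0344). Without AAV replicate 4, the library of this label with a high macrophage sum, its log2 fold change was 0.50 (limma, adjusted p = 0.00923). Its partner Eef1d had 4748, 3972, 4385 and 4354 against 3411 to 3508 (0.33 ± 0.09 SE, limma, adjusted p = 0.0295). Eif5b, the GTPase that joins the subunits, had 18915, 11348, 11047 and 12978 against 8279 to 9124, with AAV replicate 1 far above the others (0.60 ± 0.17 SE, limma, adjusted p = 0.0281). Eif5 had 7309, 6584, 6138 and 8187 against 4439.9 to 5177 (0.51 ± 0.12 SE, limma, adjusted p = 0.0149), and Eif1b 1143, 1136, 1019 and 1039.8 against 811 to 879.8 (0.34 ± 0.09 SE, limma, adjusted p = 0.0289). None of the 5 overlapped between the groups. Eef1d and Eif5b lost their calls whichever KO replicate was left out, Eef1d also without AAV replicate 1. Eif1b did so too and also without AAV replicate 1 or 2, whereas Eif5 kept its call in each fit that left out 1 library and lost it with all 12 libraries in one fit (adjusted p = 0.0626).

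Eef1a1, lower in the libraries labelled KO than in those labelled WT, had 1979, 1869, 1258 and 4158 in AAV, where replicate 4 was far above the rest and replicate 3 was within the KO range. It was not called (0.56 ± 0.30, adjusted p = 0.181), and its log2 fold change was 0.23 without AAV replicate 4 and 0.80 without replicate 3, where it passed (adjusted p = 0.0374). Eef1a2 was also not called (-0.30 ± 0.13, adjusted p = 0.11), although its AAV counts, 45175, 47571, 51898 and 43980.0, were all below those of KO. Eef2 had 31116, 42823, 45267 and 31102 (-0.46 ± 0.17, adjusted p = 0.0664) and Eef2k 2479, 2765, 3583 and 2045 (-0.43 ± 0.16, adjusted p = 0.0712). Eef2k and Eif4ebp1 passed only without AAV replicate 3, at -0.58 (adjusted p = 0.0102) and 0.86 (adjusted p = 0.00857), among the fits that left out 1 library. Eef2 also passed in that fit (-0.56, limma, adjusted p = 0.0252) and with a correction for GC content (-0.70, adjusted p = 0.0318). Eef1a2 passed with a correction for gene length (-0.46, limma, adjusted p = 0.0326) or GC content (-0.64, adjusted p = 0.0196).

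Markers of other tissues and cell types were summed in the same way. All 7 slow fibre markers were measured, and their summed counts were 3396, 5982, 3836 and 6629.9 in WT, 1160.4, 1297, 1112 and 1241 in KO and 11509.5, 24409.6, 7138 and 2934 in AAV, with none at 0, and those of KO lay below all others. AAV replicate 4 was the lowest of its group in this sum and the highest in macrophage markers. The 5 endothelial markers summed to 2554, 1534, 4604 and 1655 in WT, 4633, 4874, 4023 and 3656 in KO and 3417, 5230.3, 4596 and 2969 in AAV, where WT replicate 3 was the highest of its group and within the KO range. The 5 Schwann cell markers summed to 1308, 1154, 2557 and 1411 in WT, 2735, 2230.2, 1765 and 1686 in KO and 2592, 4003, 2066 and 1467 in AAV, where WT replicate 3 was again the highest of its group. The 3 measured red blood cell markers of 5 summed to 327 to 406 in WT, 35.9 to 387 in KO and 363 to 1028 in AAV. The sums of endothelial, Schwann cell, red blood cell, fibroblast, adipocyte and liver markers overlapped between each pair of labels. The part of fibre type and of these cell types in the differences between the labels was not tested.

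Here, too, single libraries set the count. It was 26 without AAV replicate 3 (34.1% of all genes), 14 without AAV replicate 2 (24.3%), 13 without AAV replicate 4 (22.1%) and 8 without AAV replicate 1 (15%). It was 4, 5, 11 and 3 without KO replicates 1, 2, 3 and 4 in turn, beside 13.5%, 14.3%, 19.2% and 13.2% of all genes, so the count over all genes moved in the same direction as that of the members. Beyond single libraries, total reads as the scaling ended the calls of Eif1ad, Eif2a, Eif2b2, Eif2s1, Eif3m, Eif4g3 and Eif5a2. One fit of all 12 libraries ended those of Eef1d, Eif3m, Eif4ebp2, Eif4g2, Eif4g3, Eif5, Eif5a2 and Eif5b. With the replicate number as a block, Eef1b2, Eif2ak1, Eif3j2, Eif4a2, Eif4ebp2 and Eif5 were the 6 still called. DESeq2 called 4 further members, namely Eef1a2, Eef2, Eif4ebp1 and Eif4enif1, and all 18. Eef1b2 and Eif2ak1 were the 2 of 18 members called in each alternative tried.

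The third comparison set the libraries labelled AAV against those labelled WT. None of the 61 members passed in limma (0 called, against 1.29% of 14939 genes), and 9 (14.8%) had an unadjusted p under 0.05, against 18.2% of all genes. On the recovered reads DESeq2 called 0 members, against 6.26% of all genes, and edgeR called 0, against 1.09%. The median log2 fold change was -0.18 for the members and -0.03 for all genes, and 47 of 61 members (77.0%) had values below 0, against 53.2% of all genes. With total reads as the scaling these medians were -0.03 and 0.12. The log2 fold changes of greatest size were those of Eef1a1 (-0.96 ± 0.48, adjusted p = 0.318), Eif4ebp1 (-0.84 ± 0.35, adjusted p = 0.252), Eif4ebp2 (-0.79 ± 0.34, adjusted p = 0.254) and Eif5b (0.61 ± 0.26, adjusted p = 0.254). Without WT replicate 2 and AAV replicate 4, the libraries whose Gaa level stood apart, 0 members and 0.068% of all genes were called, so this fit says little about the members.

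Genes that work beside these factors were described list by list, beside shares of all genes of 12.3% higher and 15.3% lower in KO against WT and of 12.8% higher and 13.4% lower in AAV against KO. These lists hold 6 to 20 genes, so that 1 gene is a large share of a list. Of 20 cytosolic tRNA synthetases, which charge the tRNAs that eEF1A carries, 5 rose and 0 fell in the libraries labelled KO (median log2 fold change 0.13), and 0 rose and 6 fell in those labelled AAV against KO (median -0.14). Examples, named like Atf4 and Ddit3 after their values were seen, are Nars (0.61 ± 0.13 SE, limma, adjusted p = 0.00924 for KO against WT) and Iars (0.84 ± 0.22 SE, limma, adjusted p = 0.02). Of 6 genes that modify eIF5A or eEF2, 3 fell and 1 rose in KO. Dohh, the hydroxylase that completes hypusine on eIF5A, had counts of 1973, 2779, 2022 and 2155 in WT and 659, 1113, 1080.1 and 1571 in KO, which is a log2 fold change of -1.06 ± 0.24 (SE, limma, adjusted p = 0.0113). Of 18 cap and poly(A) regulators, 3 rose and 2 fell in KO, and 1 rose and 5 fell in AAV against KO. Of these, the RNA helicase Ddx3x had the log2 fold change of greatest size in both comparisons, though not the lowest adjusted p in KO against WT. It had 2461, 1080.0, 3673 and 1445 in WT, 6034, 5343, 4513 and 5287 in KO and 2273, 3196, 2805 and 1684 in AAV (1.44 ± 0.32 SE, limma, adjusted p = 0.0118 for KO against WT and -1.12 ± 0.19 SE, limma, adjusted p = 0.00531 for AAV against KO).

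Of 6 genes of eIF2α dephosphorylation and the stress response that follows eIF2α phosphorylation, 1 fell and 0 rose in KO. That was Asns, asparagine synthetase, with 124, 138, 89.3 and 113 in WT and 58.9, 71.0, 81.6 and 25.6 in KO (-1.06 ± 0.34 SE, limma, adjusted p = 0.0416). The transcription factor Atf4, whose translation rises when eIF2α is phosphorylated, was not called (-0.09 ± 0.14, adjusted p = 0.629), nor was Ddit3 (-0.57 ± 0.25, adjusted p = 0.107). Of the same 6 genes, 1 rose in AAV against KO, Ddit3 (0.71 ± 0.15 SE, limma, adjusted p = 0.0108). Release and recycling factors gave 1 rise and 0 falls of 6 in KO and 0 rises and 3 falls in AAV against KO, and 9 mitochondrial translation factors gave 0 rises and 2 falls in KO and 1 of each in AAV against KO. No gene of these lists was called in AAV against WT.

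Exon length and base content were set beside the calls. Members lower in KO had a median exon length of 2512.5 bases and those higher in KO of 5670, against 4709.5 for those not called. After a correction for gene length, 11 members were called in KO against WT, of which 10 were among the 13. After a correction for GC content there were 17, of which 12 were among the 13, and the others were Eef1e1, Eef2, Eif1ax, Eif4e and Eif5. Members lower in AAV than in KO had a median GC content of 40.8%, against 46.2% for those higher and 49.9% for those not called. After the GC correction, 15 members were called in that comparison, 10 of them among the 18, and Eif2s1, Eif2a, Eif3e, Eif3m, Eif4a2, Eif4g2, Eif5a2 and Eif1b were no longer called.

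Copies of the members in the genome can take reads. In the transcripts of GENCODE M21, 23 members had another gene at least 90% identical over at least 50% of the shorter transcript, and 8 of them had such a gene in the tables. The measured match of Eif5b was the gene Rev1 and that of Eif1 was the coding gene Emd. The counts are therefore of matches, not only of copies. Eef1a1 had 18 copies, of which the pseudogenes Gm6548 and Gm13456 were measured, with group means of at most 69.9. The authors kept only uniquely mapped reads, so reads that fit Eef1a1 and a copy equally were counted for neither. How many were lost was not tested, and the level of Eef1a1 may be understated. The pseudogene Eif5al3-ps, 1 of the 3 rows left out by name and singled out after its values were seen, is 97.2% identical to Eif5a over 434 bases. It had counts of 189, 195, 127 and 177 in WT, 0.966, 0, 0 and 3.54 in KO and 34.5, 74.5, 156 and 124 in AAV, whereas Eif5a had 7107 to 10679, 6829.6 to 8142 and 7067 to 9245. These values are therefore near 0 in KO for the pseudogene and far above it for Eif5a in all groups.

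Promoters were read for the members that the elongation result turns on and for those that share a motif. RefSeq (GRCm38.p6) gave a promoter for 49 of the 61 members, taken as the 250 bases before the most upstream start in that table. For 43 of the 49 this start lies within 250 bases of the GENCODE gene start, and for the other 6 it lies further inside the gene, among them Eef1a1 (7427 bases), Eif4g1 (4414) and Eif1b (374). The letters CACGTG, the palindromic E-box read by Myc and by TFEB, a regulator of lysosomal genes, are present in 9 of these 49 (18.4%) and in 6.04% of all 27025 promoters of that length. They are Eef2, Eef2k, Eif1b, Eif3f, Eif3k, Eif4a1, Eif4g1, Eif4h and Eif5a2. Of the 10 members with a promoter that were called in KO against WT, 3 hold the motif: Eef2k, higher in KO, and Eif1b and Eif3f, lower in KO. Of the 14 called in AAV against KO, 2 hold it (14.3%): Eif1b, higher in AAV, and Eif5a2, lower in AAV. The letters TGATGNAA on either strand, the core of the element bound by ATF4, are present in 1 of the 49 (2.04%), Eif2s3x, and in 3.53% of all promoters. No match says only that the letters are not in these 250 bases.

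The sequences below, 5′ to 3′ on the gene's strand, show Eef1a1, which has neither motif, and the kinase and substrate pair Eef2k and Eef2. They also show Eif1b and Eif3f, the other members with CACGTG that were called in KO against WT. The promoter of Eif5a2, called in AAV against KO, is not printed. Capitals mark CACGTG, which lies 43 bases before the RefSeq start in Eef2, 31 in Eef2k, 24 in Eif1b and 68 in Eif3f (distance of its first base). The windows are chr9:78481725-78481974 (minus strand, 68.0% GC) for Eef1a1, chr10:81176381-81176630 (plus strand) for Eef2, chr7:120842581-120842830 (plus) for Eef2k, chr9:120492356-120492605 (plus, 80.4% GC) for Eif1b and chr7:108934165-108934414 (plus, 43.6% GC) for Eif3f.
Eef1a1: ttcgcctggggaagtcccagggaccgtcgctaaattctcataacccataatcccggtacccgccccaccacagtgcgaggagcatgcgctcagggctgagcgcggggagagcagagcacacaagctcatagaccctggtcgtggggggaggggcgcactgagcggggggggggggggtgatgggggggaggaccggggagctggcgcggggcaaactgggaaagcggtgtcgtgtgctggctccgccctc
Eef2: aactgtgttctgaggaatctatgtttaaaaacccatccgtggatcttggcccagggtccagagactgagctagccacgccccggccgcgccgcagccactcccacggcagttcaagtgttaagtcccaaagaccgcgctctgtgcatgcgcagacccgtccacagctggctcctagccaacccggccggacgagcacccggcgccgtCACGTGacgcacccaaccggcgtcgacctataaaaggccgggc
Eef2k: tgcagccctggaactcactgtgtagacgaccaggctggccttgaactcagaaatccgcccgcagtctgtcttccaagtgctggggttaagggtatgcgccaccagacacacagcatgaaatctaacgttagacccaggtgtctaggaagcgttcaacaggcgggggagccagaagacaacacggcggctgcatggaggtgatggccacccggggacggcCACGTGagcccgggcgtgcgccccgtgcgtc
Eif1b: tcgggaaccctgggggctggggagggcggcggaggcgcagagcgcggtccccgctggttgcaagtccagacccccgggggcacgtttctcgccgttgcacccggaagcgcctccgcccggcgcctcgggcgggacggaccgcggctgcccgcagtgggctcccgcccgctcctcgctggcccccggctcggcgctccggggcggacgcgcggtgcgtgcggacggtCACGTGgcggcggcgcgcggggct
Eif3f: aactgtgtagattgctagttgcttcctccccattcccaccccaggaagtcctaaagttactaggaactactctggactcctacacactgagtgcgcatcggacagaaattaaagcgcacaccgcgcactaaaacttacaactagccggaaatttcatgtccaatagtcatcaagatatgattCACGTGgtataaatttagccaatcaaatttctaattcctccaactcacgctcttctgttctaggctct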

How the data were processed

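RNA-Seq of quadriceps from 12 mice was analysed, with groups taken from the sample labels. The paper's human libraries were not analysed here. For the deposited signal values, the authors trimmed reads (Trim Galore 0.4.1, reads of at least 20 nt kept), mapped them to GRCm38 with STAR, kept uniquely mapped reads, counted them per gene with HTSeq 0.6.1, dropped genes that had under 10 reads in all libraries, and divided counts by DESeq2 1.16.1 size factors. In each library 100% of values were whole multiples of 1 read (tolerance 0.01), so whole reads were recovered. The deposited tables also hold the authors' log2 fold changes with standard errors, Wald statistics as a score, and p-values and adjusted p-values of 2 comparisons, which were not used.

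limma 3.58.1 (trend) in R 4.3.3 was fitted to log2(normalized count + 1) of the 8 libraries compared, for genes reaching 10 in any of them, with Benjamini-Hochberg adjustment over all genes tested. Fold changes are on this log2 scale, which understates the change of low genes. Calls are at an adjusted p under 0.05. Replicates are single animals as labelled, and p-values cover the spread between these 4 per group. Alternatives were DESeq2 1.42.0 and edgeR 4.0.16 on the recovered reads, other scalings, filters and pseudocount, all 12 libraries in one fit, the replicate number as a block, corrections for length and GC content, and each library left out. The fit was tested on simulated data. The members and lists were chosen with earlier results of these data known. Named members were those fixed by role, those called with a log2 fold change of 1 or more in either direction, the 10 with the lowest adjusted p per comparison and the 5 highest and 5 lowest in mean, 42 in all, and every other called member was added. Length and GC content came from GENCODE M21 (61 of 61 members matched by identifier), and copies from BLAST 2.17.0. Levels per kilobase use the union of exons. Promoters are from RefSeq. Chromosome 18 sequence is not printed.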

Additional observations from a re-analysis of the deposited data

Results flagged for a closer look

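In groups of 4, a library was singled out where its gap to the nearest of the others was too large a share of the group's range by Dixon's criterion. Chance gives such a gap in about 1 in 20 groups, and 3 were found among 126 groups (42 named members in 3 groups). Eif3j2 in KO replicate 2 had 13.7 normalized counts, against 391 to 419.8 in the other libraries labelled KO. The same library had 1813 counts of Eif3l, a subunit of eIF3, against 1667 to 1682 in the others. Eif4b, the cofactor of the eIF4A helicase, had 11875 counts in WT replicate 3, against 9329 to 9619 in the other libraries labelled WT.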

How the results depend on the processing

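For KO against WT, the 13 called members became 7 with the replicate number as a block (20.6% of all genes, against 27.6% without it) and 4 to 31 when each library was left out in turn (15.9% to 48.4%). For AAV against KO, the 18 (26.3% of all genes) became 10 with all 12 libraries in one fit (17.7%), 6 with the replicate block (14.6%) and 3 to 26 when each library was left out (13.2% to 34.1%). For AAV against WT, the 0 became 1, Eif3l, with all 12 libraries in one fit, and stayed 0 in the other settings, replicate block included. Other settings gave 11 to 17 calls for KO against WT and 13 to 22 for AAV against KO. The cause of these moves was not tested. Replicate numbers are shared between groups, but no comparison had all 4 same-numbered pairs deviating together. The correlations of their deviations were 0.09, 0.00, -0.14 and -0.13 for KO and WT, -0.11, 0.10, -0.23 and -0.16 for AAV and KO and -0.05, -0.48, 0.66 and 0.56 for AAV and WT, where replicates 3 and 4 did deviate together. The numbers were therefore not taken as pairs. Best matched with its own number were 1, 0 and 2 of 4 libraries. No called member changed sign in any setting. Leaving out WT replicate 2 and AAV replicate 4 together concerns AAV against WT, since each other comparison holds only 1 of them. Total reads as the scaling moved the median log2 fold change of all genes to 0.21 for AAV against KO and to 0.12 for AAV against WT. Depth limits Eif5a2, with at most 29.4 normalized counts in any library.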
